A study of Mus musculus with 4 samples.

Results

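The HoxC cluster is a run of 9 homeobox genes, Hoxc4, Hoxc5, Hoxc6, Hoxc8, Hoxc9, Hoxc10, Hoxc11, Hoxc12 and Hoxc13, on mouse chromosome 15. All 9 genes were taken, out of 21951 protein-coding genes of the GENCODE M21 annotation, together with every CTCF and RAD21 peak that overlapped the cluster or the 200 kb to either side of its outermost genes. On mm10 (GRCm38) the cluster ran from 102921103 to 103036852, which is 115.8 kb, and the whole window from 102721103 to 103236852, which is 515.8 kb. Overlapping peaks of the 5 mm10 lists were merged, and 19 of the 33037 merged sites of the genome lay in this window. They are numbered here from site 1, on the Hoxc13 side, to site 19, on the Hoxc4 side.

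CTCF and RAD21 were profiled by ChIPmentation, a chromatin immunoprecipitation in which the sequencing adapters are inserted by a transposase, in whole limbs at E12.5. The embryos, of strain B6CBAF1, were TgN(38-40)/Wt; del(CS38-40)-/-: they were hemizygous for a transgene that holds the boundary region CS38-40 of the HoxD locus, inserted on chromosome 10, and homozygous for a deletion of that region at its own place on chromosome 2. Each antibody had 2 replicates, and the labels do not separate forelimbs from hindlimbs. The fifth list is a wild-type RAD21 ChIP-seq of an earlier study, a single library made with another protocol, so genotype and protocol cannot be told apart wherever that list differed from the others. None of the engineered alleles touches chromosome 15, and no wild-type CTCF list was used here.

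Peak files hold no RNA, so the limb origin could not be checked against marker genes, and the read depth behind a peak is unknown. A fold below is the enrichment of a peak over the local expectation as MACS2 gave it. Folds were compared only within a list, as a percentile in which 100 is the strongest peak. A missing peak is a site below the calling threshold and is not proof of an unbound site.

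CTCF is a zinc finger protein that binds a directional DNA motif. The ring-shaped cohesin complex, of which RAD21 is a subunit, extrudes loops of chromatin and tends to halt where it meets the motif of a bound CTCF in one orientation, so that loops often form between motifs that face each other. Hox genes encode homeodomain factors that set position along the body axis and within the limbs, and they are ordered in their clusters by the place and time of their expression. Paralogous genes of the 4 mammalian clusters share a group number, from group 1 to group 13.

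Exactly 3 CTCF sites lay inside the HoxC cluster. Site 7 preceded the start of Hoxc10, a posterior gene of the lumbar level and the hindlimb. Site 8 lay between Hoxc9 and Hoxc8, genes that act in the trunk at thoracic levels. Site 9 lay between Hoxc6 and Hoxc5, anterior members of the cluster, just before the start of the coding transcript of Hoxc5. The sequences of sites 8 and 9 are shown because they fix the direction of each site, with 20 bases before and after the 19 bp CTCF motif, whose letters are in capitals, read on the plus strand of GRCm38.

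Site 8, chr15:102987570-102987628: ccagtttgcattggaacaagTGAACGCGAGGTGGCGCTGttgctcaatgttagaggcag
Site 9, chr15:103013679-103013737: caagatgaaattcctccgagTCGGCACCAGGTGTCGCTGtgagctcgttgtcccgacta

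All 3 motifs lay on the plus strand, which is also the strand of the 9 Hoxc genes, so they pointed away from Hoxc13 and toward Hoxc4. Their match to the motif model learned from other chromosomes was modest. The score of site 7 was 12.2, which is at or above that of 19.1% of the 2000 strong peaks the model was learned from. Site 8, with a score of 13.7, stood at 26.2% and site 9, with 13.8, at 26.3%. The 3 motifs share 11 of their 19 letters, NNNNNNCNAGGTGNCGCTG in the order printed, and 135 of the 22761 CTCF motifs found in the genome, or 0.593%, held these letters too. The letters were picked from these 3 motifs after they were seen, so the 3 hold them by construction and are counted among the 135.

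Among the 9 genes, Hoxc10 and Hoxc5 had a CTCF site within 1 kb of the start of a coding transcript, and the same 2 genes had a RAD21 site there. The share over 21829 protein-coding genes was 14.5% for CTCF and 12.4% for RAD21, and with 9 genes a count of 2 is not read as more than that share. The motif of site 7 was centred 218 bp before the Hoxc10 start at 102966796, and that of site 9 was centred 107 bp before the Hoxc5 start at 103013815. No annotated exon covers either stretch. The sequence from 20 bases before the Hoxc5 motif to the base before the start is given because it places the motif within the promoter.

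Hoxc5, chr15:103013679-103013814, plus strand: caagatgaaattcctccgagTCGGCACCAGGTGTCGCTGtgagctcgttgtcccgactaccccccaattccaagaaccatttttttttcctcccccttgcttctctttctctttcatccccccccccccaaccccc

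The Hoxc5 stretch is 55.1% G and C with 5 CG dinucleotides in 136 bases, and a pyrimidine-rich stretch leads up to the start.

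The other 7 genes had no CTCF or RAD21 peak within 1 kb of a coding start in any of the 5 lists. Hoxc8 came closest among them: the median summit of site 8 lay 2.98 kb before its start. For Hoxc6 the nearest CTCF summit was that of site 9, 4.13 kb after its start, and for Hoxc9 it was that of site 7, 9.90 kb before the nearer of its 2 coding starts. Hoxc4, the most anterior gene, had site 9 at 5.23 kb before its outer start and 20.7 kb before its inner one. The 3 posterior genes were all farther away, with site 7 at 12.1 kb from the start of Hoxc11, 29.8 kb from that of Hoxc12 and 45.4 kb from that of Hoxc13, a regulator of hair and nail keratins. No peak of any list overlapped the coding extent of any of the 9 genes.

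Site 7, called in 4 of the 5 lists, had the highest CTCF fold of the 3 in replicate 2, while site 9 had it in replicate 1. Its CTCF fold was 6.78 in replicate 1, the 55.0th percentile, and 12.3 in replicate 2, the 91.7th percentile. RAD21 was enriched 9.68-fold in replicate 2, the 78.9th percentile, and 7.45-fold in wild-type limbs, the 82.1st percentile. The 2 CTCF replicates thus place the site in the middle of one list and near the top of the other.

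Site 8 was of middling CTCF rank and, in the 2 RAD21 lists that called it, of high RAD21 rank. Its CTCF fold was 6.27 in replicate 1, the 45.1st percentile, and 6.83 in replicate 2, the 37.9th percentile. RAD21 was enriched 9.35-fold in replicate 2, the 75.7th percentile, and 8.89-fold in wild-type limbs, the 92.1st percentile. In both lists with a RAD21 peak the site stood higher for RAD21 than in either CTCF list.

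Site 9 was near the middle of both CTCF lists. Its CTCF fold was 7.03 in replicate 1, the 60.1st percentile, and 7.56 in replicate 2, the 49.2nd percentile. RAD21 was enriched 6.04-fold in replicate 2, the 28.4th percentile, and 4.90-fold in wild-type limbs, the 54.6th percentile. For RAD21 it stood lowest of the 3 cluster sites in both lists.

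**Figure D1:**
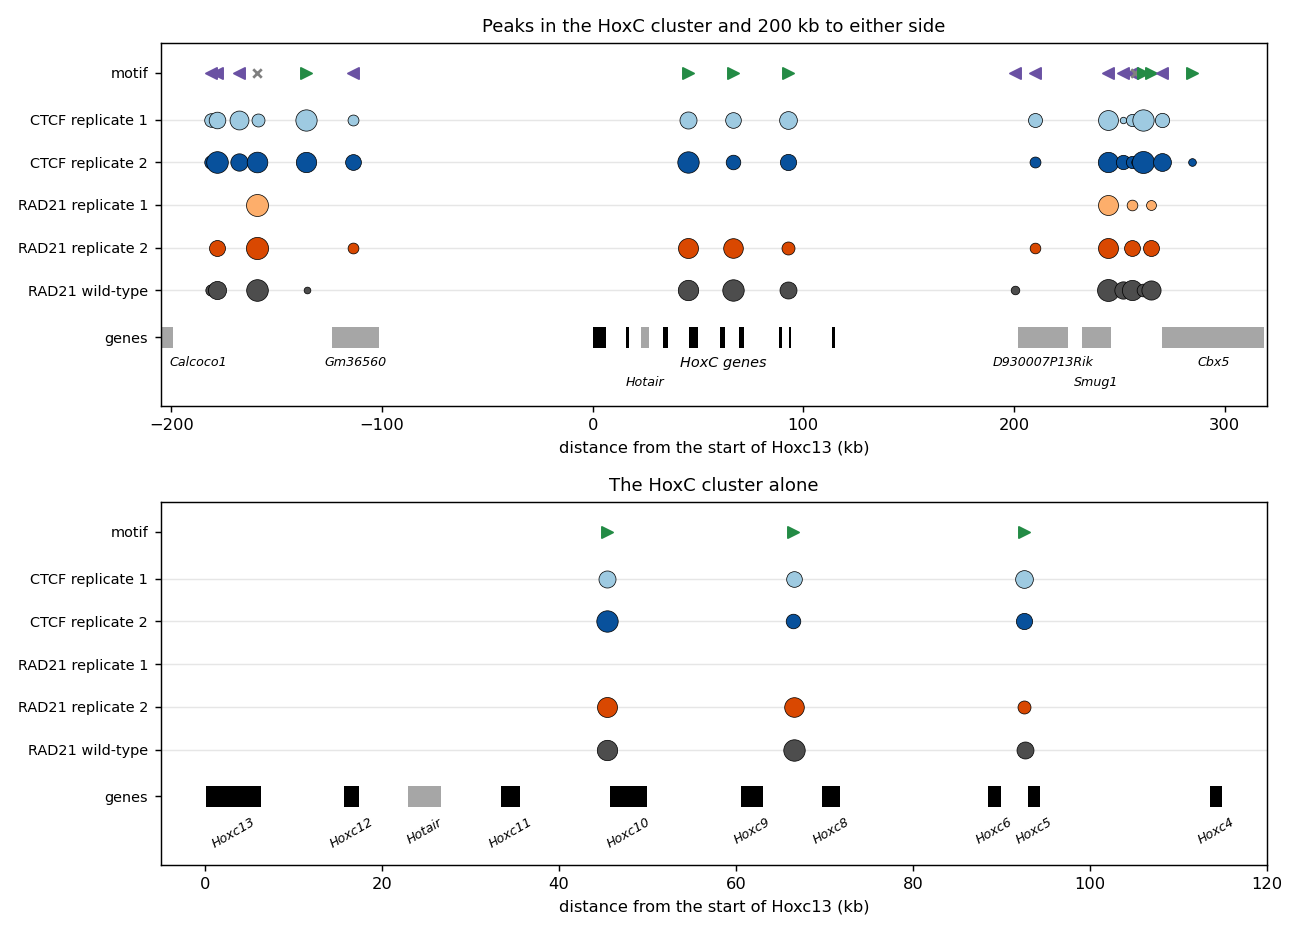
Positions of all peaks as distance in kb from the start of Hoxc13 (x axis) in each of the 5 lists (rows), for the window (top) and the cluster alone (bottom). A larger circle is a higher percentile of the fold within its list, green and purple triangles are motifs on the plus and minus strand, a cross is a site without a motif, black bars are the coding extents of the Hoxc genes and grey bars other genes. The 3 sites inside the cluster all carry plus-strand motifs, and the row of RAD21 replicate 1 is empty there.

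None of the 3 cluster sites had a peak in RAD21 replicate 1. That list held 4075 peaks on the assembled chromosomes, against 14763 in RAD21 replicate 2, 20786 in the wild-type list, 23793 in CTCF replicate 1 and 26235 in CTCF replicate 2. Over the genome, 13.5% of the 28789 CTCF sites carried a peak of RAD21 replicate 1, 46.7% one of RAD21 replicate 2 and 58.7% one of the wild-type list. Only 26.2% of the peaks of RAD21 replicate 2 were found in replicate 1, and among those with a -log10 q from 14 to 18, the range that holds sites 7 and 8 at 16.3 and 14.8, the share was 49.1%. The absence of sites 7 and 8 from that list was therefore shared by much of the genome at this peak strength. Site 9, with a -log10 q of 5.92, was weaker, and the share at its strength was not computed.

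**Figure D2:**
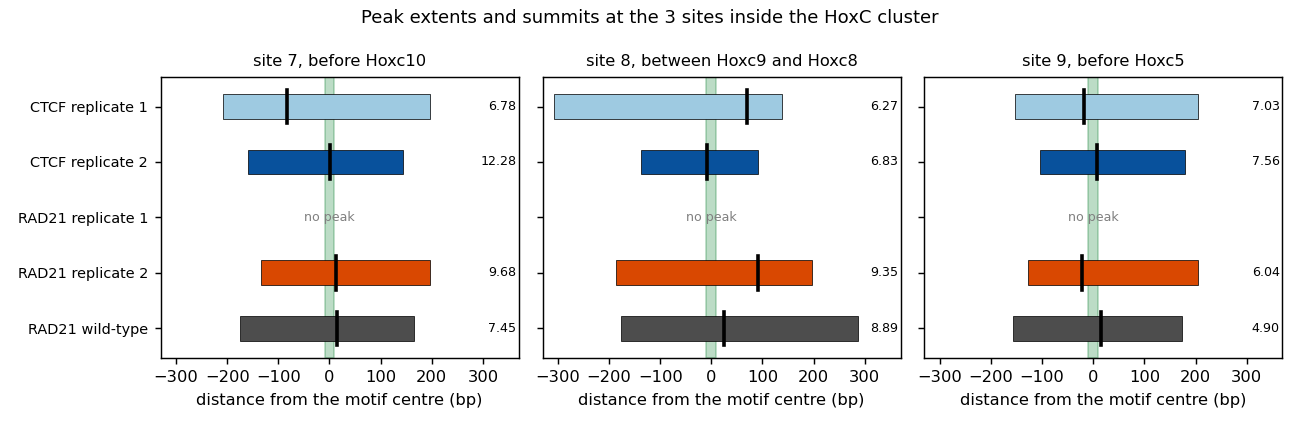
Extent of each called peak (bar) and its summit (black line) as distance in bp from the centre of the CTCF motif (x axis, green band) at the 3 sites inside the cluster, in each list (rows), with the fold at the right. The wild-type RAD21 summits sit 14, 24 and 16 bp to the right of the motif centre, and RAD21 replicate 1 has no peak at any of the 3.

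The RAD21 summits lay close to the motifs. In the wild-type list they were 14 bp from the motif centre at site 7, 24 bp at site 8 and 16 bp at site 9, each on the 3′ side of the motif as printed. The median over 14380 such peaks of the genome was 20 bp on the same side, with quartiles of 13 and 28 bp, so the cluster sites lay within the usual range. In RAD21 replicate 2 the summits scattered more, at 13, 91 and -22 bp, where the genome median was 13 bp with quartiles of -10 and 52 bp. The CTCF summits of replicate 2 lay at 1, -9 and 8 bp, and those of replicate 1 at -83, 69 and -18 bp. Replicate 1 placed 2 of the 3 summits more than 50 bp from the motif, so its list alone would assign a motif to site 9 only.

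Long stretches without a CTCF peak reached into the cluster from both sides. From the end of site 6 to the start of site 7 no CTCF peak was called over 158.7 kb, a stretch longer than 87.7% of the gaps between neighbouring CTCF sites on the autosomes, whose median was 32.2 kb. It contained the whole of Hoxc13, Hoxc12 and Hoxc11, and also Hotair, a long intergenic non-coding RNA (lincRNA) transcribed from the opposite strand between Hoxc12 and Hoxc11. RAD21 had no peak there either. On the other side, 116.8 kb without a CTCF peak ran from site 9 to site 11, longer than 82.5% of the gaps, and held the coding extents of Hoxc5 and Hoxc4. The only call in this second stretch was the RAD21 peak of site 10, in the wild-type list alone.

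The 3 cluster sites thereby divided the coding extents into 4 groups. Hoxc13, Hoxc12 and Hoxc11 lay on the far side of site 7. Hoxc10 and Hoxc9, with the microRNA gene Mir196a-2 between them, lay between sites 7 and 8, which were 20.5 kb apart. Hoxc8 and Hoxc6 lay between sites 8 and 9, which were 25.8 kb apart. Hoxc5, with Mir615 inside it, and Hoxc4 lay beyond site 9. A long annotated non-coding transcript of Hoxc5 begins at 102967443 and spans site 8 as an intron.

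In the whole window 17 merged CTCF sites were counted, 6 on the Hoxc13 side, 3 in the cluster and 8 on the Hoxc4 side. Of these, 15 had a peak in both CTCF replicates, where the share in the genome was 73.0%, and the other 2, sites 15 and 19, were called in replicate 2 alone. The density was 33.0 CTCF sites per Mb in the window, 25.9 in the cluster and 10.6 over the assembled chromosomes. When the autosomes were cut into 4766 stretches of the window's length, 94.3% held fewer CTCF sites, with a median of 4, although gene density was not matched. Most CTCF sites of the window lay more than 100 kb from the cluster: with flanks of 100 kb it held 4, the 3 of the cluster and site 11. Of 21266 stretches of the length of the cluster alone, 79.5% held fewer than 3.

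The peaks of the window were of ordinary strength. The median percentile of the fold was 45.1 over 15 peaks in CTCF replicate 1 and 49.2 over 17 peaks in replicate 2. For RAD21 it was 47.5 over the 4 peaks of replicate 1, 47.2 over the 10 of replicate 2 and 63.5 over the 13 of the wild-type library. Over the 15 sites shared by both CTCF replicates, Spearman's rho between the folds was 0.614, against 0.633 over all 21021 shared sites of the genome, given as a description since sites of 1 library are not replicates. The percentiles of a site in the 2 replicates differed by a median of 12.1 points and by up to 56.5 points, at site 4, so no ordering of sites that are closer than this is warranted.

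**Figure D3:**
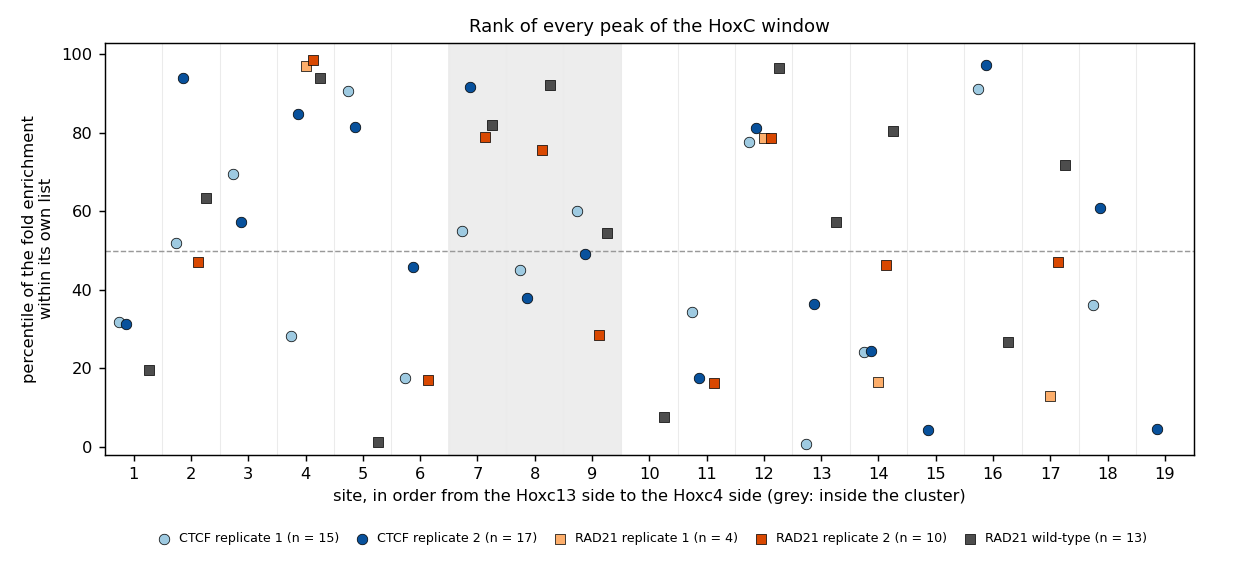
Percentile of the fold of every peak within its own list (y axis) at the 19 sites in genomic order (x axis), with CTCF as circles and RAD21 as squares. The grey band holds the 3 sites inside the cluster, and site 16 pairs CTCF percentiles of 91.1 and 97.4 with a single RAD21 peak at 26.7.

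RAD21 was called in at least 1 list at 13 of the 17 CTCF sites, where the share in the genome was 60.8%. By list, RAD21 replicate 1 had a peak at 3, RAD21 replicate 2 at 9 and the wild-type library at 11 of them. The 4 CTCF sites without RAD21 were sites 3, 15, 18 and 19. Sites 3 and 18 had CTCF peaks in both replicates, with folds of 7.58 and 8.21 at site 3 and 5.89 and 8.51 at site 18. Sites 15 and 19, by contrast, were among the weakest peaks of CTCF replicate 2 by fold, at the 4.16th and 4.39th percentile. By q, site 19 was again weak, at the 3.48th percentile, but site 15 stood at the 35th.

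Counted the other way, there were 15 RAD21 sites in the window, of which 4 were called in all 3 RAD21 lists, 4 in RAD21 replicate 2 and the wild-type list, and 7 in a single list. The 3 cluster sites and site 2 made up the second class. Over the genome, 3847 of the 21770 RAD21 sites were called in all 3 lists, and the shares of the other classes were not computed. RAD21 replicate 2 had 10 peaks in the window, and 4 of them were found in replicate 1, where the share in the genome was 26.2%.

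The strongest RAD21 site of the Hoxc13 side was site 4, from 102761731 to 102762207, which lies between genes 39.8 kb from the start of Calcoco1, a gene for a coiled-coil coactivator. Its RAD21 folds in replicates 1 and 2 and in wild-type limbs were 9.38, 14.1 and 9.23, at the 97.0th, 98.7th and 94.0th percentile. Its CTCF fold was 5.55 in replicate 1 and 11 in replicate 2, at the 28.2nd and 84.7th percentile. No CTCF motif reached the score of 7.80 that defined a match within 50 bp of its CTCF summits, and the best candidate there scored 7.06. Over the genome 79.1% of the CTCF sites had a motif by this rule, and in the window 15 of 17 did.

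Site 16 stood at the other extreme, with much CTCF and little RAD21. It was intergenic, from 103182135 to 103182589, between the start of Smug1, a uracil DNA glycosylase gene, and the end of Cbx5, which encodes the heterochromatin protein HP1 alpha. Ranked by fold, its CTCF peak was number 2123 of 23793 in replicate 1 and number 670 of 26235 in replicate 2, with folds of 9.45 and 14.2. Ranked by q, it was number 37 and number 14. Neither RAD21 replicate had a peak there, and the wild-type RAD21 peak had a fold of 3.35, at the 26.7th percentile, or the 35.2nd by q. The site has motifs on both strands, shown here because they leave its direction undecided. In 1 run of the plus strand, chr15:103182295-103182405, the first stretch of capitals is a plus-strand motif with a score of 15.1 and the second, whose start lies 52 bp from the start of the first, is a minus-strand motif with a score of 17.8.

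Site 16: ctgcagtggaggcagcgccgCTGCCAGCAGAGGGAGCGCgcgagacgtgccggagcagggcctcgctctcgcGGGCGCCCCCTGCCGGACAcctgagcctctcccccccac

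The plus-strand motif was the one within 50 bp of a summit, and the minus-strand motif took its place when the search was widened to 100 bp. Sites 2 and 3, on the Hoxc13 side, also held a second motif, in both cases on the same strand as the first, 70 and 190 bp away. Sites 5 and 13 held a weaker second motif on the opposite strand to the first, a minus-strand motif of score 10.7 at 374 bp in site 5 and a plus-strand motif of score 8.22 at 28 bp in site 13. The lone peak of site 15 had a minus-strand motif of score 18.5 that lay beyond the 50 bp limit.

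RAD21 without CTCF was found at 2 sites of the window, sites 10 and 17, which is 2 of 15 where the share in the genome was 20.0%. Site 17, from 103185805 to 103186234 between Smug1 and Cbx5, was called in all 3 RAD21 lists with folds of 5.07, 7.13 and 6.37, at the 12.9th, 47.2nd and 71.9th percentile. Of the 3847 RAD21 sites of the genome called in all 3 RAD21 lists, 50 had no CTCF peak, which is 1.30%. Site 17 nevertheless held a plus-strand CTCF motif with a score of 13.99, and 44 of those 50 sites held a motif too. The sequence is given because the site had the motif and RAD21 but no CTCF call.

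Site 17, chr15:103185951-103186009, plus strand: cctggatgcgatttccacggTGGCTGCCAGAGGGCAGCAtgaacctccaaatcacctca

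Site 10, the wild-type peak in the long stretch beyond Hoxc4, was weak, with a fold of 2.61 at the 7.59th percentile and a minus-strand motif of score 11.5. Site 5 is counted among the CTCF sites with RAD21 only because its peaks overlapped: the wild-type RAD21 summit, of fold 2.19, lay 331 bp from the nearest CTCF summit, while at the other 12 shared sites the nearest summits were at most 28 bp apart. The RAD21 summit of site 5, at 102785601, lay close to the second, minus-strand motif of that site, from 102785609 to 102785627.

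The remaining sites filled the flanks. On the Hoxc13 side, sites 1 and 2 lay 17.9 and 20.6 kb from the start of Calcoco1. Site 2 had a CTCF fold of 6.62 in replicate 1 and 12.9 in replicate 2, the 51.9th and 94.0th percentile. Site 6, within an intron of the lincRNA Gm36560, was the last before the cluster, with CTCF folds of 5.07 and 7.38 and a RAD21 fold of 5.42 in replicate 2. On the Hoxc4 side, site 11 was the first with CTCF, within an intron of the lincRNA D930007P13Rik, with folds of 5.80 and 5.58. Its motif was the only one of the window made wholly of repeat-masked bases, 19 of 19. Site 12 overlapped an exon of Smug1, 1.48 kb from a coding start, and was called in all 5 lists, with CTCF folds of 8.12 and 10.5 and RAD21 folds of 7.23, 9.66 and 9.88. Site 14 was also called in all 5, with CTCF folds of 5.37 and 5.96 and RAD21 folds of 5.18, 7.09 and 7.27. Site 13 was a marginal CTCF call in replicate 1, at the 0.685th percentile, although the wild-type RAD21 peak there stood at the 57.2nd. Site 19, within an exon of Cbx5, closed the series.

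Motif direction was compared between the cluster and its flanks. Of the 15 CTCF sites with a motif, 6 had it on the plus strand and 9 on the minus strand, where 50.1% of the motif-bearing sites of the genome were on the plus strand. Site 16, whose direction is undecided, is counted here by its plus-strand motif. With the search widened to 100 bp, 5 sites had a plus-strand motif and 11 a minus-strand motif. On the Hoxc13 side, sites 1, 2, 3 and 6 were on the minus strand and site 5 on the plus strand. The 3 cluster sites were all on the plus strand. On the Hoxc4 side, sites 11, 12, 13, 14 and 18 were on the minus strand, and sites 16 and 19 on the plus strand. The 3 plus-strand motifs of the cluster were thus followed, on the Hoxc4 side, by 4 CTCF sites in a row whose motifs faced them, while the nearest site on the Hoxc13 side, site 6, had its motif turned away from them. The change on the Hoxc13 side rests on site 6: its motif, of score 9.71, is lost with those of sites 3 and 7 at the stricter score that 1% of flanking sequence reaches, and the nearest motif on that side is then that of site 5, on the plus strand like those of the cluster. Peak lists do not show contacts, so whether any of these sites form loops was not measured.

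The other Hox clusters were read in the same way to place the HoxC sites. Inside the clusters there were 3 CTCF sites in 115.8 kb at HoxC, 5 in 105.3 kb at HoxA, 10 in 173.9 kb at HoxB and 5 in 96.8 kb at HoxD. These counts come from 1 locus each and were not tested against each other. Each of the other 3 clusters had at least 1 site between its group 13 gene and the next member: 1 at HoxA, 5 at HoxB and 1 at HoxD, all with motifs pointing toward the group 13 gene. HoxC had none between Hoxc13 and Hoxc12. The next member was Hoxa11 at HoxA, Hoxb9 at HoxB and Hoxd12 at HoxD, so these intervals are unlike, and their lengths were not matched. None of the 3 motifs inside the HoxC cluster pointed toward Hoxc13. At HoxA 2 of 5, at HoxB 6 of 8 and at HoxD 2 of 5 pointed to the group 13 gene.

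Each HoxC site had a counterpart at the matching interval of other clusters. Between the genes of groups 11 and 10, site 7 was matched by a site at HoxA and one at HoxD. Between groups 9 and 8, site 8 was matched by a site at HoxB and one at HoxD. Between groups 6 and 5, site 9 was matched by a site at HoxA and one at HoxB. The cluster not named for an interval lacks at least 1 of its 2 genes, so every cluster with both genes had exactly 1 CTCF site there, called in both CTCF replicates. All 9 sites had their motif on the strand of the genes, pointing away from group 13. The intervals were compared after the HoxC sites were known, and only intervals with a HoxC site were taken. Among the other sites of the clusters, 2 motifs at HoxA, 6 at HoxB and 2 at HoxD pointed toward group 13. Those between Hoxa9 and Hoxa7 and between Hoxd8 and Hoxd4 pointed away from it.

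The distances to the next gene were also alike in 2 of the 3 intervals. The motif lay 3.01 kb before the start of Hoxc8, 2.95 kb before that of Hoxb8 and 2.21 kb before that of Hoxd8. It lay 107 bp before the start of Hoxc5, 77 bp before that of Hoxa5 and 261 bp before that of Hoxb5. In the third interval the distances differed, with the motif 218 bp before the start of Hoxc10 and 5.44 kb before that of Hoxd10, while at HoxA it lay 308 bp inside the nearest annotated coding transcript of Hoxa10, which has a far upstream start. The 6 counterparts are printed for comparison with sites 8 and 9, each read on the strand of its genes.

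Hoxa11 to Hoxa10, chr6:52240517-52240575, minus strand: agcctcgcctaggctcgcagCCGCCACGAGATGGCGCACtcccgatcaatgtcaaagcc
Hoxd11 to Hoxd10, chr2:74686457-74686515, plus strand: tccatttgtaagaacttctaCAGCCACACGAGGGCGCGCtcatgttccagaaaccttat
Hoxb9 to Hoxb8, chr11:96278925-96278983, plus strand: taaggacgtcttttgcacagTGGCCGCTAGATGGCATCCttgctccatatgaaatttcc
Hoxd9 to Hoxd8, chr2:74702372-74702430, plus strand: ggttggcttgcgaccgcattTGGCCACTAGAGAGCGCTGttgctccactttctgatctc
Hoxa6 to Hoxa5, chr6:52204635-52204693, minus strand: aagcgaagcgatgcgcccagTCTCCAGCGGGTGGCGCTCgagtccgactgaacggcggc
Hoxb6 to Hoxb5, chr11:96303222-96303280, plus strand: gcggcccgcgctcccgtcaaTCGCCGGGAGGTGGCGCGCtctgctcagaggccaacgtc

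Aligned on the motif, the 9 pairs from matching intervals were identical at 11 to 14 of the 19 motif bases, with a median of 12, and the 27 other pairs at 8 to 14, also with a median of 12. Over the 59 bases printed the medians were 25 and 22, over the 40 bases flanking the motif 12 and 11, over the 20 bases before it 5 and 6, and over the 20 bases after it 7 and 5. The ranges of matching and other pairs overlapped in each of these measures, and the differences were not tested.

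RAD21 accompanied the matching sites unevenly. At the interval of groups 6 and 5, Hoxa5 had RAD21 peaks in replicate 2 and the wild-type list, as Hoxc5 did, and Hoxb5 in all 3 lists. At that of groups 9 and 8, Hoxd8 had the same 2 lists as Hoxc8, and Hoxb8 all 3. At that of groups 11 and 10, Hoxc10 had RAD21 in 2 lists, whereas the sites at HoxA and HoxD had none. These are calls at single loci, and no test of the difference was possible. HoxD, unlike HoxC, lies on the chromosome from which region CS38-40 was deleted.

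**Figure D4:**
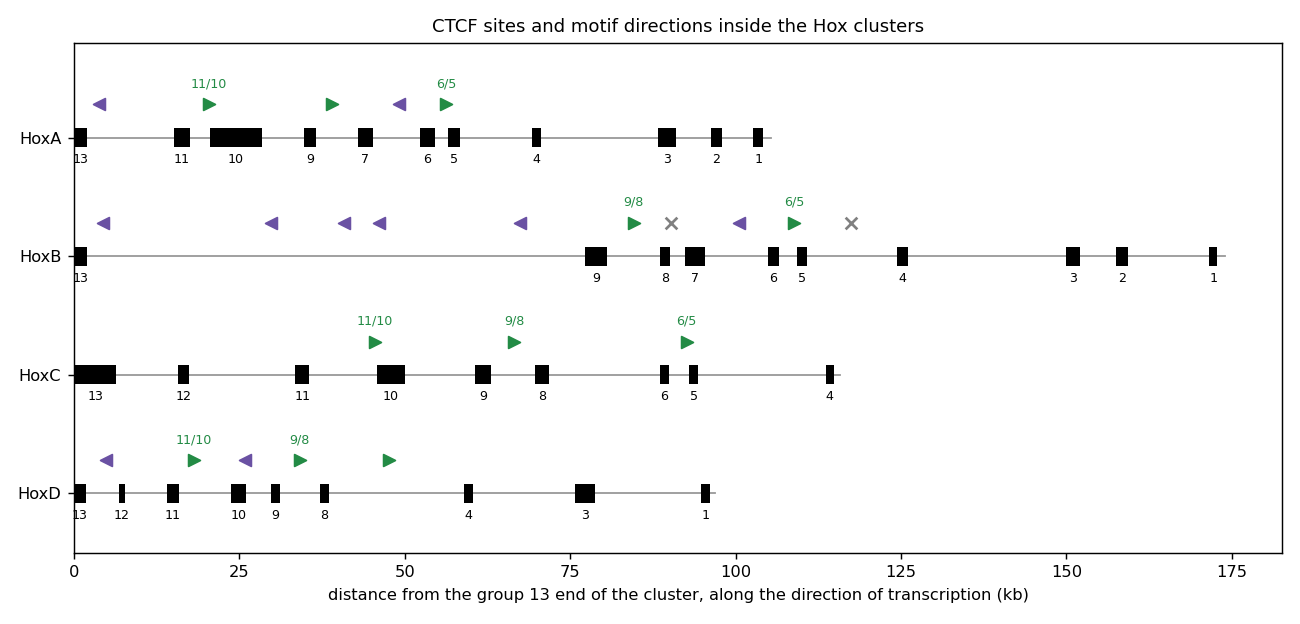
CTCF sites inside the 4 Hox clusters as distance in kb from the group 13 end along the direction of transcription (x axis), with coding extents as black bars labelled by group number. Green triangles point away from the group 13 gene, purple triangles toward it, and crosses mark sites without a motif. Numbers above triangles give the intervals that HoxC shares with other clusters, and all 9 such sites are green.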

How the data were processed

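The ChIPmentation reads were mapped by the authors to mm10 and to a custom genome with the transgene, and peaks were called for every replicate on its own. Among the tools listed in the submitters' processing notes are MACS2 2.1.1.20160309 for peaks, Bowtie2 2.3.4.1 and cutadapt 1.16. The control given to MACS2 is not given in the sources used here. In each deposited list a peak has a fold enrichment, a ratio of its pileup to the local expectation, and its p-value and q-value as -log10. The lists hold no read counts, so depth and the error of a fold are unknown, and no test was made. The input libraries were left out. Peaks on the assembled chromosomes were merged where they overlapped by at least 1 bp. Ranks and percentiles are within a list. Genes are from GENCODE M21 and sequence from GRCm38, and a start is that of a protein-coding transcript. A 19 bp CTCF motif model was learned from 2000 peaks of CTCF replicate 2, on autosomes other than 2, 6, 10, 11, 15 and 18. The learning step, but not this model, was tested on simulated sequences with a made-up motif. A match is the best motif centred within 50 bp of a summit with at least the score that 5% of flanking sequence reaches. The numbers of the replicates come from the names of the lists. The genes, the window and the lists were chosen with earlier results of these data known. Python 3.11.15, numpy 2.4.6 and pysam 0.24.0 were used. The 9 Hoxc genes were all named, and the stricter peak, overlap and motif settings tried are given at the end. The sequence of 1 site is not reported here.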

Additional observations from a re-analysis of the deposited data

Results flagged for a closer look

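The lists of the custom genome were not used for the counts above. There were 4 of them, for the ChIPmentation replicates and not for the wild-type library. In the HoxC window they held every peak of the matching mm10 lists, and 1 peak more. CTCF replicate 1 had a peak from 103092746 to 103092877, in the long stretch beyond Hoxc4, that its mm10 list lacked. The fold of this peak was 4.78, at the 12.9th percentile of its custom-genome list, with a -log10 q of 3.75. The nearest summit of any mm10 list was 28.9 kb away. CTCF replicate 2 had no peak there in either genome. The authors kept all reads for the custom genome, so read filtering and reference sequence both changed, and the part of each in this peak was not tested.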

How the results depend on the processing

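Of 58 recomputed values, 47 stayed within 1.5 times the reported count or, for the percentile, within 2.91 points. The percentile here is the mean of the median percentiles of the 2 CTCF replicates, and 2.91 is the SD of these 2 medians. With flanks of 100 kb the window held 4 CTCF sites, 4 of them with RAD21, 1 RAD21 site without CTCF, 3 plus-strand motifs and 1 minus-strand motif. These 4 were the 3 cluster sites and site 11, so the other CTCF sites of the window all lay more than 100 kb from the cluster. Leaving out CTCF replicate 1 or 2 gave 17 and 15 CTCF sites, 3 in the cluster either way, 13 with RAD21, 2 RAD21 sites without CTCF, and a median percentile of 49.2 and 45.1. It gave 6 or 3 plus-strand and 8 or 5 minus-strand motifs, and without replicate 2 only 1 of the 3 cluster sites had a motif within reach of a summit. Leaving out RAD21 replicate 1 or 2 left 13 and 11 CTCF sites with RAD21 and 2 RAD21 sites without CTCF. Without the wild-type list 1 RAD21 site had no CTCF peak and 9 CTCF sites had RAD21. The mean of the 2 median percentiles, 47.1, became 50.9 and 75.4 with peaks of a -log10 q of at least 5 and 10. Weak peaks are left out there by construction. Ranked by -log10 p, the mean was 58.4. At a q threshold of 10 the cluster kept 2 of its 3 sites. At the motif score reached by 1% of flanks sites 3, 6 and 7 lost their motifs, which left site 5, on the plus strand, nearest to the cluster on the Hoxc13 side, and no setting placed a cluster motif on the minus strand. No paired analysis was possible because the result comes from no test. Depth is unknown for every list, so a call missing from RAD21 replicate 1 or from either CTCF list cannot be told from a shallow library.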
